A study of Arabidopsis thaliana with 7 samples.

Results

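The genes for the first families of cytosolic large-subunit ribosomal proteins of *Arabidopsis thaliana*, L3 to L15, were examined in *hot3* mutant seedlings. The set holds 45 loci in 16 protein families, taken by locus name out of 27655 genes in the count tables, and 43 of the 45 had enough counts to be tested. HOT3 is eIF5B1, a translation initiation factor that acts at the joining of the ribosomal subunits. Polyadenylated RNA of whole 18-day-old seedlings was sequenced in 7 libraries, all in the Col-0 background, from plants kept at 23 °C under a photoperiod of 16 h light. The groups were *hot3-2* (n = 3), *hot3-3* (n = 2) and wild type (WT, n = 2), where *hot3-2* and *hot3-3* each carry a T-DNA insertion in *HOT3*. Each allele is thus represented by a single insertion line, and both were compared with the same WT libraries. The labels do not say whether replicates came from separately grown plants, so P values measure the spread between these libraries, which may be technical.

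The 60S subunit contains a copy of each of these proteins, and several of them, such as L3, L4 and L10, lie at or close to the peptidyl transferase centre or the exit tunnel. In plants every such protein is encoded by a small family of nuclear paralogs that are transcribed together in growing tissue and whose single mutants often have pointed leaves or embryo defects. Promoters of plant ribosomal protein genes are known for short elements called the telo box and site II, which are bound by factors linked to cell proliferation.

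Library totals lay between 14090881 and 34696683 counts, and libraries of one genotype correlated at r = 0.989 or above across genes. *HOT3* itself, counted over the whole gene on both sides of an insertion, was at 74.8 to 96.7 CPM (counts per 1000000 counts of the library) in *hot3-2*, 202 to 274 CPM in *hot3-3* and 170 to 173 CPM in WT. The whole-gene count was therefore lower in *hot3-2* only and does not check the label of *hot3-3*. Summed markers of green leaf (6 genes, RBCS1A among them) were at 17131 to 17489 CPM in *hot3-2*, 16432 to 16957 CPM in *hot3-3* and 24567 to 25252 CPM in WT. Of the 6, 1 in *hot3-2* and 2 in *hot3-3* passed the test below as lower. RBCS3B was called in both alleles (log2 fold change −1.11 and −1.36) and PSAE-1 in *hot3-3* alone (−0.83 and −1.06). LHCA2 was not called, at −0.72 and −0.90. At an unadjusted P below 0.05 in edgeR, 4 of the 6 were lower in each allele. RBCS1A, with a WT mean of 11791 CPM, was not called, at log2 fold changes of −0.35 in *hot3-2* and −0.44 in *hot3-3*. It missed the fold limit only, with an adjusted P of 0.0054 and 0.0026 (edgeR). LHCB1.2 (0.08 and 0.10) and LHCB2.1 (0.38 and 0.06) were the 2 with positive values in each allele. The median of the 6 was −0.54 in *hot3-2* and −0.67 in *hot3-3*. Markers of dividing cells (10 genes) summed to 144 to 152 CPM in *hot3-2*, 154 to 160 CPM in *hot3-3* and 122 to 140 CPM in WT, with 1 of 10, CYCB1;1, called higher in each allele. Without CYCB1;1 the other 9 summed to 125 to 131 CPM in *hot3-2*, 122 to 125 CPM in *hot3-3* and 117 to 132 CPM in WT, so that the groups overlapped. The median log2 fold change of the 10 was 0.16 in *hot3-2* and −0.05 in *hot3-3*. None was called lower by edgeR, though 1 in *hot3-2* and 3 in *hot3-3* were lower at an unadjusted P below 0.05. CDKB1;1 (0.68 and 0.79) and PCNA1 (0.54 and 0.85) were higher in each allele at an adjusted P below 0.01, under the fold limit. At that adjusted P, KNOLLE (−0.40) and HINKEL (−0.55) were lower in *hot3-3* alone. Root markers (4 genes) summed to 18.1 to 26.8 CPM in *hot3-2*, 20.3 to 25.8 CPM in *hot3-3* and 10.9 to 13.6 CPM in WT, with 2 of 4 higher in each allele. Those called were EXPA7 and NRT2.1. NRT2.1 had 2 and 1 counts in WT and a mean of 4.68 CPM in *hot3-2* and 2.78 CPM in *hot3-3*. CASP1, the largest part of the WT sum at a mean of 10.1 CPM, was not called (log2 fold change 0.41 and 0.42), and neither was COBL9. Floral organ markers (3 genes, of which 1 was tested) stayed at or below 3.06 CPM in every library. The part of these shifts in the results below was not tested. In bulk seedlings, fewer cells of a type and less RNA per cell cannot be told apart.

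Nearly the whole set was higher in both alleles. The 45 genes together took 2.13%, 2.01% and 2.07% of the library in *hot3-2* and 2.26% and 2.25% in *hot3-3*, against 0.938% and 0.799% in WT. The mutant libraries all lay above the WT libraries. The group means were 2.07% ± 0.059 in *hot3-2* (SD, n = 3), 2.26% ± 0.011 in *hot3-3* (SD, n = 2) and 0.868% ± 0.099 in WT (SD, n = 2), a ratio to WT of 2.39 in *hot3-2* and 2.597 in *hot3-3* on unscaled library totals. An exact two-sided permutation test over libraries gave P = 0.20 for *hot3-2* and P = 0.33 for *hot3-3*, which are the smallest values that 10 and 6 possible splits allow. WT replicate 1 was above WT replicate 2 in CPM for 42 of the 43 tested genes, with a median distance of ±0.11 on the log2 scale from the WT mean.

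**Figure D1:**
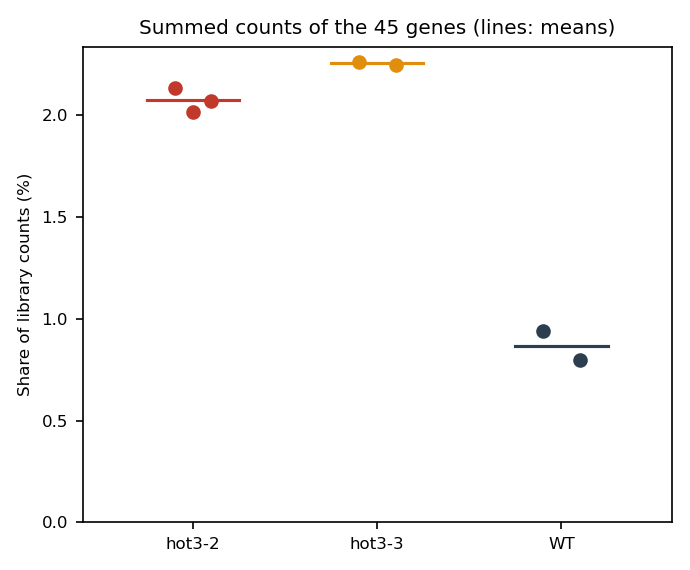
Share of all library counts (%) taken by the 45 genes, 1 point per library, with lines at the group means, for *hot3-2* (n = 3), *hot3-3* (n = 2) and WT (n = 2). The mutant libraries lie between 2.01% and 2.26%, above both WT libraries at 0.938% and 0.799%.

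Gene by gene, edgeR's quasi-likelihood test was used, with library sizes scaled by TMM, the trimmed mean of M values, and a gene was called when its log2 fold change was at least 1 and its adjusted P was under 0.01, with P adjusted over the 20795 genes tested. In *hot3-2*, 37 of 43 genes were higher than in WT, where 7.80% of all tested genes were. In *hot3-3*, 38 of 43 were higher, against 9.63% of all tested genes, and 37 were higher in both alleles, against 6.30%. No gene of the set was called lower in either allele by edgeR or DESeq2, where edgeR called 3.88% of all tested genes lower in *hot3-2* and 4.91% in *hot3-3*. At an unadjusted P below 0.05 the number of lower genes in the set was still 0 in edgeR. Without the fold limit 42 of 43 passed as higher in each allele (18.8% and 19.5% of all tested genes in *hot3-2* and *hot3-3*). The same number, 42 of 43, had every mutant library above every WT library, in *hot3-2* (34.7% of all tested genes) and in *hot3-3* (38.7%). The median log2 fold change of the set was 1.32 in *hot3-2* and 1.36 in *hot3-3*, while that of all tested genes was 0.00 and 0.01. Each of the 16 families had at least 1 gene called higher in both alleles, and in 10 families in *hot3-2* and 11 in *hot3-3* every tested paralog was. Among the single libraries left out, those of WT moved the counts most, to 31 in *hot3-2* and 35 in *hot3-3* without WT replicate 2, and to 40 and 42 without WT replicate 1.

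**Figure D2:**
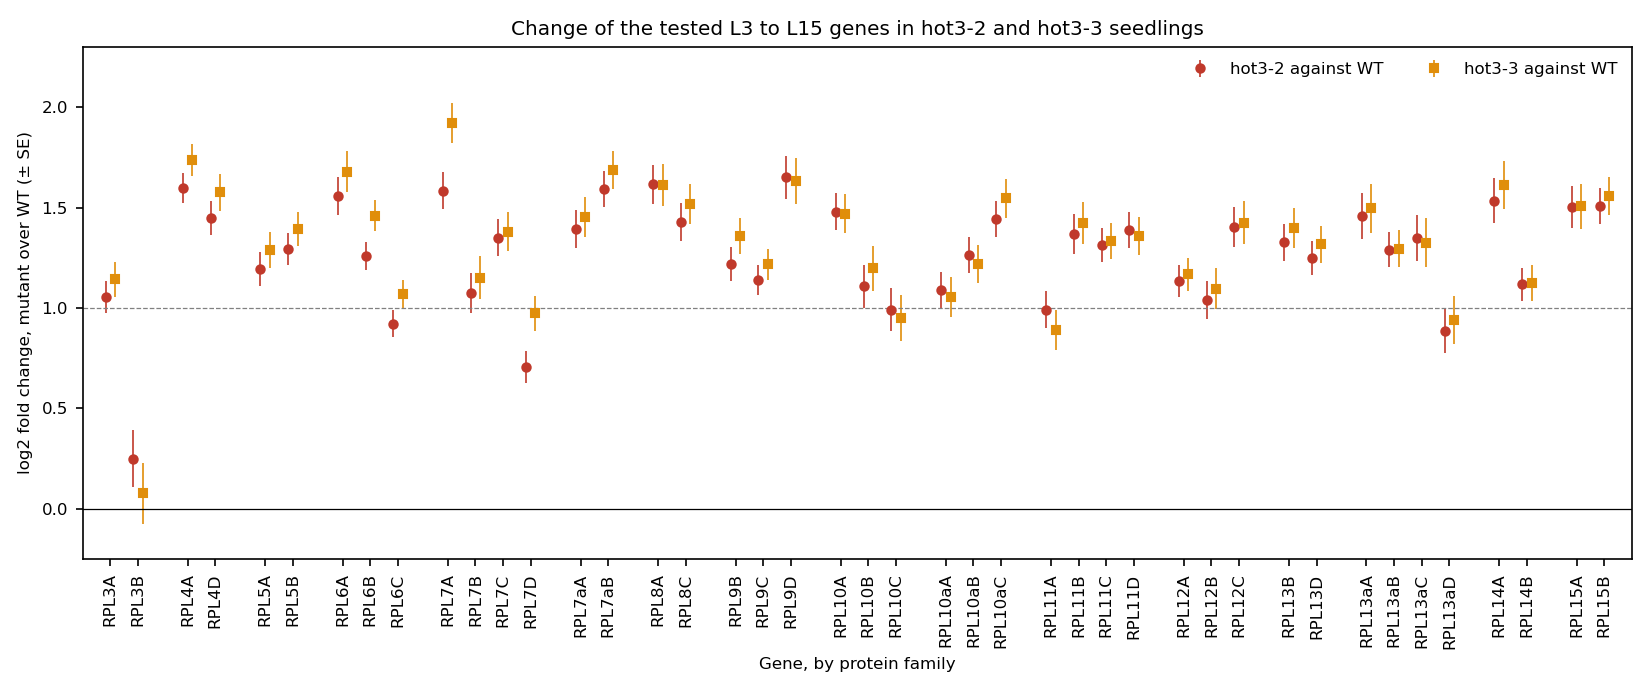
Log2 fold change of the 43 tested genes over WT (vertical axis, ± SE), grouped by protein family along the horizontal axis, with circles for *hot3-2* and squares for *hot3-3*. The dashed line marks a log2 fold change of 1, and RPL3B alone sits near 0, at 0.25 in *hot3-2* and 0.08 in *hot3-3*.

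The genes that changed most belonged to different families. RPL7A (AT1G80750, chr1:30348670-30350564, + strand, 6 exons), a paralog of the L7 family with 57.1% to 58.9% coding identity to the other L7 genes, was at 89.8, 83.0 and 86.1 CPM in *hot3-2* and 118 and 110 CPM in *hot3-3*, against 31.8 and 27.8 CPM in WT. The 5 mutant libraries lay clear of WT, and both *hot3-3* libraries lay above all *hot3-2* libraries, as they did in CPM for 31 of the 43 tested genes. The log2 fold change was 1.58 ± 0.092 (SE) in *hot3-2* and 1.92 ± 0.098 (SE) in *hot3-3* (edgeR, adjusted P = 3.65e-06 and 1.69e-06). RPL4A (AT3G09630, chr3:2953693-2955748, + strand, 2 exons), whose protein sends a loop into the exit tunnel, had 709, 748 and 736 CPM in *hot3-2* and 864 and 817 CPM in *hot3-3*, against 263 and 236 CPM in WT. Its log2 fold change was 1.60 ± 0.075 (SE) in *hot3-2* and 1.73 ± 0.080 (SE) in *hot3-3* (edgeR, adjusted P = 1.62e-06 and 1.23e-06). Here too no mutant library overlapped WT.

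RPL9D (AT4G10450, chr4:6462918-6464558, − strand, 2 exons), the least abundant of the L9 paralogs, was at 135, 121 and 127 CPM in *hot3-2* and 135 and 129 CPM in *hot3-3*, against 46.8 and 37.5 CPM in WT. The alleles overlapped each other and lay above WT, with a log2 fold change of 1.65 ± 0.11 (SE) in *hot3-2* and 1.63 ± 0.11 (SE) in *hot3-3* (edgeR, adjusted P = 5.65e-06 and 6.19e-06). RPL7aB (AT3G62870, chr3:23242561-23244397, − strand, 6 exons) reached 868, 838 and 849 CPM in *hot3-2* and 951 and 952 CPM in *hot3-3*, against 318 and 266 CPM in WT. RPL6A (AT1G18540, chr1:6376639-6378580, − strand, 4 exons) reached 653, 587 and 621 CPM in *hot3-2* and 714 and 699 CPM in *hot3-3*, against 237 and 199.6 CPM in WT. For both genes the *hot3-3* libraries were the highest and the WT libraries the lowest. The log2 fold changes were 1.59 ± 0.090 and 1.69 ± 0.095 for RPL7aB and 1.56 ± 0.096 and 1.68 ± 0.10 for RPL6A (SE, *hot3-2* and then *hot3-3*). RPL6A shares 618 exonic bases with a gene on the other strand, and the strand setting of the counting was not stated, so reads of that gene may be included.

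At the other end stood RPL3B (AT1G61580, chr1:22720560-22723152, − strand, 6 exons), the minor of the L3 paralogs, whose product belongs to the protein family that reaches towards the peptidyl transferase centre. RPL3B was at 32.7, 32.4 and 32.9 CPM in *hot3-2* and 32.6 and 28.2 CPM in *hot3-3*, against 34.1 and 23.1 CPM in WT. The WT libraries lay on either side of all mutant libraries, and the log2 fold change was 0.25 ± 0.14 (SE) in *hot3-2* and 0.08 ± 0.15 (SE) in *hot3-3* (edgeR, adjusted P = 0.173 and 0.702). Its sister RPL3A (AT1G43170), with 79.2% coding identity, passed the test with a log2 fold change of 1.05 ± 0.080 (SE) in *hot3-2* and 1.14 ± 0.086 (SE) in *hot3-3*. RPL3A supplied nearly all of the L3 message, at 1449, 1426 and 1442 CPM in *hot3-2* and 1627 and 1575 CPM in *hot3-3*, against 771 and 663 CPM in WT.

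The other genes with small changes passed the adjusted P but mostly missed the fold limit. RPL7D (AT3G13580, chr3:4433047-4435305, + strand, 6 exons) was at 139.8, 157 and 142 CPM in *hot3-2* and 188 and 179 CPM in *hot3-3*, against 97.2 and 87.8 CPM in WT, with a log2 fold change of 0.71 ± 0.080 (SE) and 0.97 ± 0.086 (SE). RPL13aD (AT5G48760, chr5:19771099-19772789, − strand, 4 exons) was at 125, 112 and 119.8 CPM in *hot3-2* and 130.3 and 129 CPM in *hot3-3*, against 75.0 and 58.6 CPM in WT, with a log2 fold change of 0.89 ± 0.11 (SE) and 0.94 ± 0.12 (SE). In both genes the mutant libraries were above WT without overlap. RPL10C (AT1G66580, chr1:24839090-24840806, + strand, 4 exons), also known as the senescence-associated gene SAG24, was at 610.0, 523 and 554 CPM in *hot3-2* and 561 and 582 CPM in *hot3-3*, against 319 and 266 CPM in WT. Its log2 fold change of 0.99 ± 0.11 (SE) in *hot3-2* and 0.95 ± 0.11 (SE) in *hot3-3* lay just under the limit, and so did that of RPL6C in *hot3-2*, 0.92 ± 0.068 (SE). With RPL11A, described next, and RPL3B these were the 6 genes not called in *hot3-2*, and RPL6C was the one of them called in *hot3-3* at 1.07 ± 0.073 (SE).

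**Figure D3:**
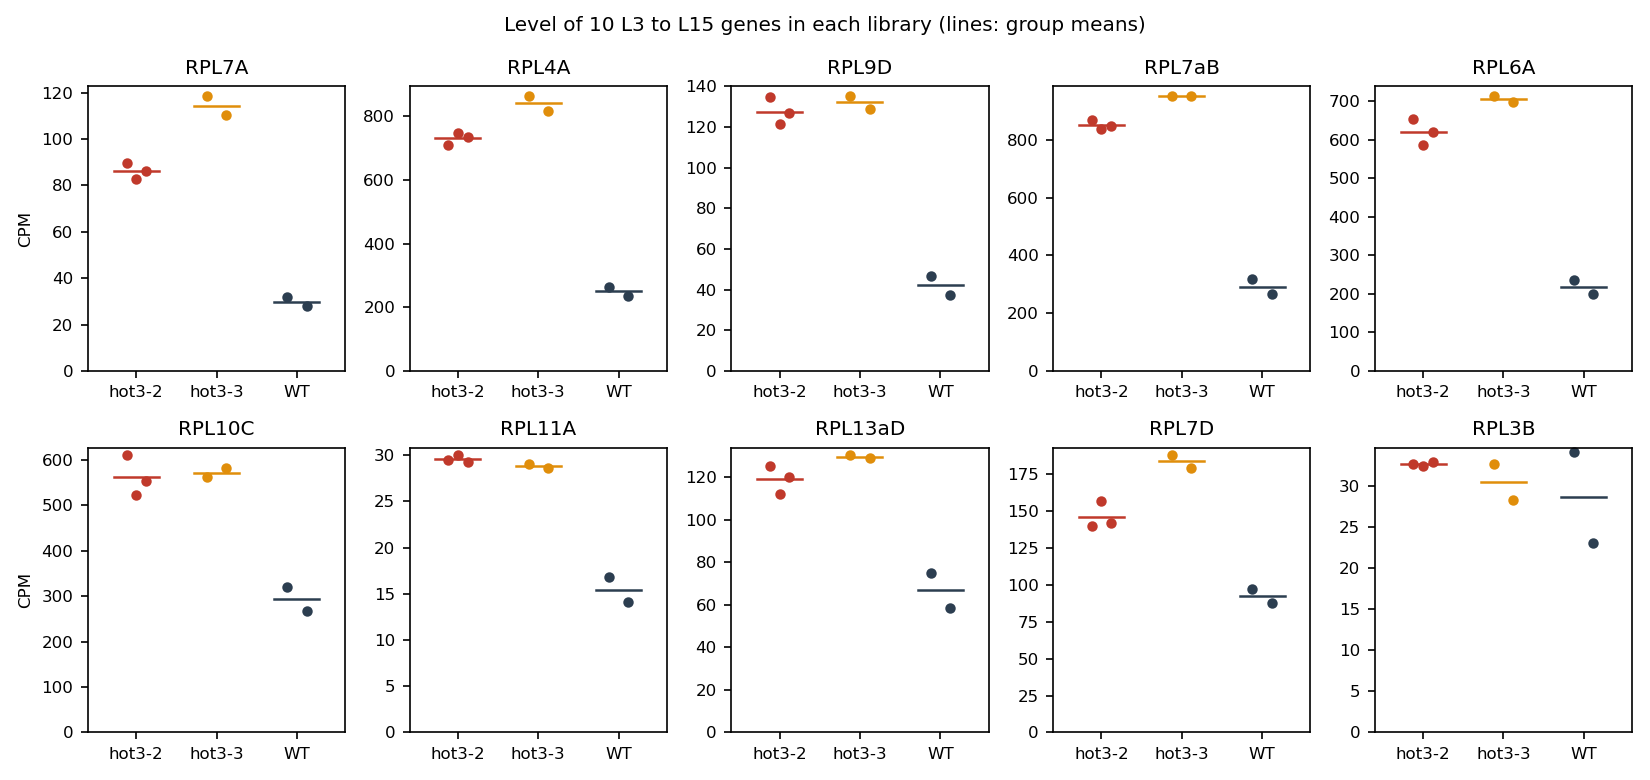
CPM in each library (points) and group means (lines) of the 5 genes with the largest (upper panels) and the 5 with the smallest mean change (lower panels), each on its own axis from 0, for *hot3-2*, *hot3-3* and WT. In 9 panels every mutant point lies above both WT points, and in the RPL3B panel the WT points at 34.1 and 23.1 CPM enclose the mutant points.

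L5 and L11 enter the subunit together with 5S rRNA as a separate particle, which in yeast is docked early and later rotated into place. Both L5 genes were called higher. RPL5A (AT3G25520, chr3:9269277-9271465, − strand), known also as PIGGYBACK3 for its leaf polarity mutants, had 1098, 1042 and 1054 CPM in *hot3-2* and 1181 and 1202 CPM in *hot3-3*, against 518 and 446 CPM in WT. RPL5B (AT5G39740, chr5:15903279-15905532, + strand) had 779.8, 767 and 778 CPM in *hot3-2* and 866 and 872 CPM in *hot3-3*, against 350.4 and 304 CPM in WT. The paralogs, which share 92.7% of their coding bases, moved by like amounts, 1.19 ± 0.085 (SE) and 1.29 ± 0.091 (SE) for RPL5A and 1.29 ± 0.081 (SE) and 1.39 ± 0.086 (SE) for RPL5B on the log2 scale, in *hot3-2* and *hot3-3* in turn.

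Among the 4 L11 genes, RPL11C (AT4G18730, chr4:10302163-10303432) was the highest, at 415, 373 and 406 CPM in *hot3-2* and 423 and 419 CPM in *hot3-3*, against 172 and 158 CPM in WT. RPL11D (AT5G45775, chr5:18564992-18566582) followed with 326, 312 and 322 CPM in *hot3-2* and 329.8 and 327 CPM in *hot3-3*, against 138 and 115 CPM in WT. RPL11B (AT3G58700, chr3:21711445-21713104) had 123, 106 and 110.2 CPM in *hot3-2* and 126 and 119.7 CPM in *hot3-3*, against 47.9 and 42.8 CPM in WT. These 3 genes were called in both alleles, with log2 fold changes from 1.32 to 1.42. RPL11A (AT2G42740, chr2:17791692-17793142) was the rarest, at 29.5, 30.02 and 29.2 CPM in *hot3-2* and 29.1 and 28.6 CPM in *hot3-3*, against 16.8 and 14.1 CPM in WT. It lay above WT in every mutant library but under the fold limit, at 0.99 ± 0.092 (SE) in *hot3-2* and 0.89 ± 0.098 (SE) in *hot3-3* (edgeR, adjusted P = 3.14e-05 and 7.40e-05). Nearly all 100-base windows of the RPL11A transcript, 97.6%, occurred nowhere else.

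The remaining families are given by role. In those near the catalytic centre and the tunnel, RPL4D rose with RPL4A (1.45 and 1.58 in *hot3-2* and *hot3-3* on the log2 scale), RPL8A by 1.62 and 1.61, and RPL8C by 1.43 and 1.52. RPL8A is an essential gene of embryo development. L10, which in yeast joins the particle last in the cytoplasm and is needed for subunit joining, had its main gene RPL10A (also SAC52) up by 1.48 and 1.47 and the rare RPL10B up by 1.11 and 1.199. L12 sits at the base of the stalk that recruits translation factors, and its 3 genes rose by 1.04 to 1.40 in *hot3-2* and 1.10 to 1.43 in *hot3-3*. L10a forms the mobile stalk at the tRNA exit side, and its genes rose by 1.09 to 1.44 and by 1.05 to 1.55, RPL10aB (PIGGYBACK1) by 1.26 and 1.22.

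The other families of the set moved over the same range. RPL15A rose by 1.505 in *hot3-2* and 1.51 in *hot3-3* and RPL15B by 1.51 and 1.56, the pair whose changes lay closest together. RPL14A rose by 1.53 and 1.61 and RPL14B, the more abundant gene, by 1.12 and 1.12. RPL13B and RPL13D rose by 1.25 to 1.33 in *hot3-2* and by 1.32 to 1.40 in *hot3-3*. RPL13aA, RPL13aB and RPL13aC rose by 1.29 to 1.46 and by 1.29 to 1.496. RPL6B rose by 1.26 and 1.46 and RPL7aA by 1.39 and 1.45. Of the L7 genes, RPL7B rose by 1.07 and 1.15 and RPL7C by 1.35 and 1.38, and of the L9 genes, RPL9B rose by 1.22 and 1.36 and RPL9C (PIGGYBACK2) by 1.14 and 1.22. RPL9B and RPL9C are 99.1% identical in coding sequence and only 49.2% and 45.2% of their 100-base windows were unique, so that uniquely mapped counts may understate both and their split is uncertain. RPL13aC shares 1200 exonic bases, RPL6B 591 and RPL8C 295 with genes on the other strand.

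RPL8B and RPL13C were close to silent in every genotype. RPL8B (AT3G51190) had 1, 2 and 0 counts in *hot3-2* and 3 and 4 counts in *hot3-3*, against 0 and 0 in WT, where 0 counts allow a level of up to 0.187 and 0.145 CPM (3 counts per library, counting error only). RPL13C (AT3G48960) had 4, 2 and 2 counts in *hot3-2* and 6 and 10 counts in *hot3-3*, against 4 and 2 in WT. Both were removed by the filter on low counts, so a difference between genotypes was not tested for them.

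Because a ribosome contains a copy of each protein, levels of the paralogs of a family were also summed by family. The summed level of a family, on TMM-scaled counts, was 2.04 (L3) to 2.98 (L8) times that of WT in *hot3-2* and 2.16 (L3) to 3.13 (L4) times in *hot3-3*. Per kb of transcript, the family sums spanned 507 CPM per kb (L9) to 1447 CPM per kb (L8) in *hot3-2*, 562 (L9) to 1529 CPM per kb (L8) in *hot3-3*, and 222 (L9) to 597 CPM per kb (L14) in WT. L9 was thus the lowest family in every genotype, and part of its transcripts could not be counted uniquely. The coefficient of variation over the 16 families was 25.2% in *hot3-2*, 23.6% in *hot3-3* and 23.1% in WT, close values in the 3 genotypes while all 16 family sums were higher in the mutants. Of single genes, RPL8A was the highest per kb in *hot3-2* (1168 CPM per kb) and *hot3-3* (1218 CPM per kb) and RPL14B in WT (526 CPM per kb).

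By group means, the order of paralogs by level per kb was the same in *hot3-2*, *hot3-3* and WT in all 16 families, as was the leading gene. Library by library, the order differed in WT replicate 2, where RPL6C lay above RPL6A (40.6% and 39.5% of the L6 level) and RPL13D just above RPL13B (49.98% and 49.97% of the L13 level). Shares of the family level per kb shifted by at most 2 points for 22 of 45 genes in *hot3-2* and likewise in *hot3-3*, and by more than 5 points for 4 genes in each. In shares of counts not divided by length, 22 genes in *hot3-2* and 23 in *hot3-3* shifted by at most 2 points, and 5 and 4 by more than 5, RPL9D in *hot3-2* being the added one. In the L6 family, RPL6A made up 50.2% ± 1.4 in *hot3-2* (SD, n = 3) and 49.4% ± 0.20 in *hot3-3* (SD, n = 2), against 41.3% ± 2.5 in WT (SD, n = 2), while RPL6C made up 31.3% ± 1.0 and 31.3% ± 0.066, against 39.98% ± 0.84. In the L10 family, RPL10A made up 62.0% ± 0.72 in *hot3-2* and 62.4% ± 0.23 in *hot3-3*, against 53.8% ± 0.48 in WT, and RPL10C 36.2% ± 0.75 and 35.7% ± 0.20, against 44.2% ± 0.48. For these 4 genes no mutant library overlapped WT. RPL7A, the gene with the largest mean change over both alleles, made up only 8.64% ± 0.12 of the L7 level in *hot3-2* and 10.1% ± 0.39 in *hot3-3*, against 6.33% ± 0.25 in WT. RPL3B made up 2.59% ± 0.017 of the L3 level in *hot3-2* and 2.18% ± 0.17 in *hot3-3*, against 4.42% ± 0.71 in WT. Shares are given without a test, since with these numbers of libraries an exact permutation test cannot go below P = 0.20 in *hot3-2* and P = 0.33 in *hot3-3*.

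**Figure D4:**
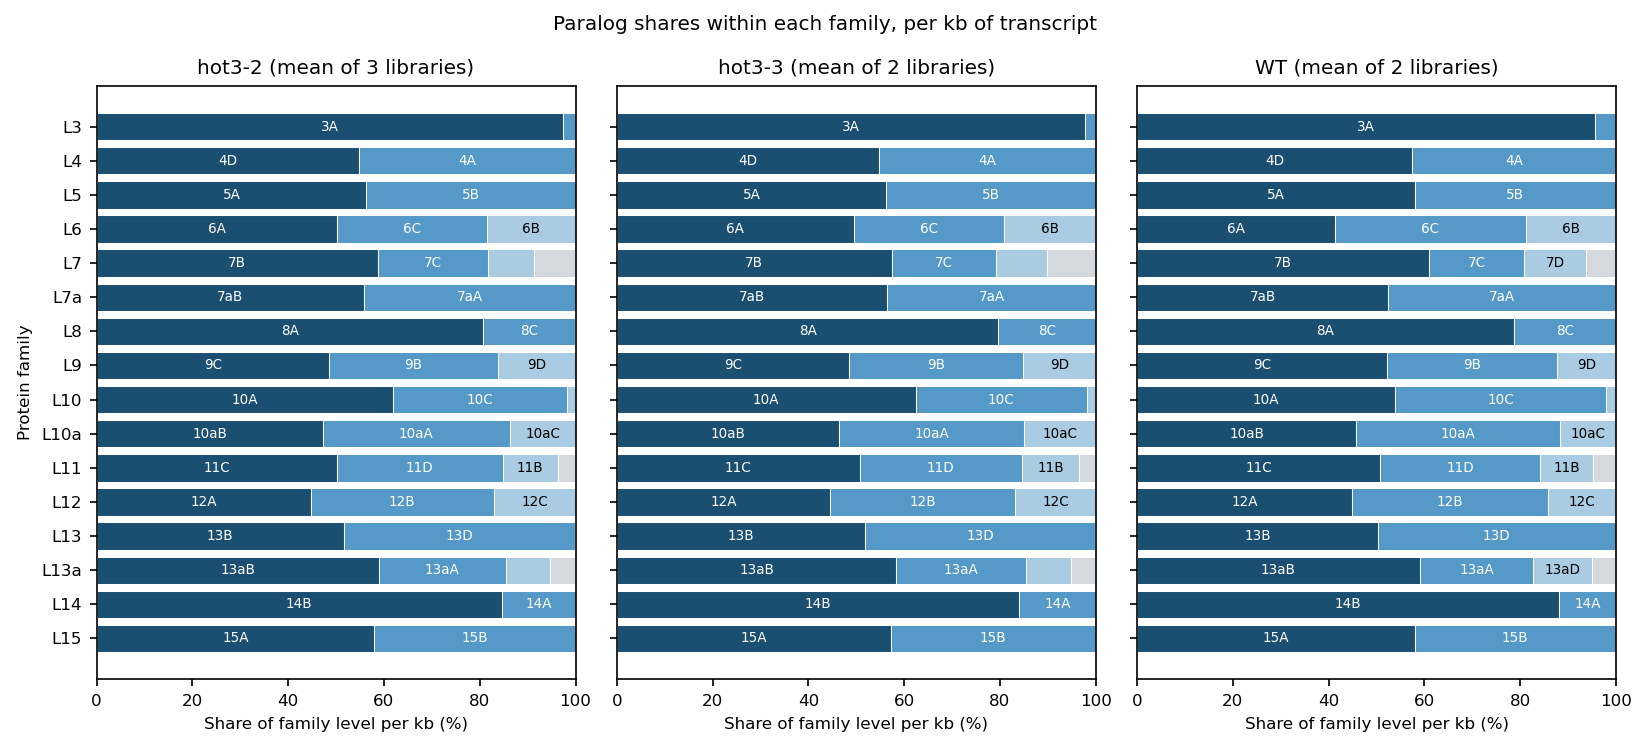
Share of each family's level per kb (%) taken by its paralogs, in horizontal stacked bars, as the mean of 3 *hot3-2*, 2 *hot3-3* and 2 WT libraries, with segments in the order of their WT share and labelled with the gene name without RPL where wide enough. The bars look alike in the 3 panels, and the largest shifts are RPL6A against RPL6C and RPL10A against RPL10C.

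Between the alleles differences were small. No gene of the set was called between *hot3-3* and *hot3-2* in either direction by edgeR or DESeq2, where 0.856% of all tested genes were higher in *hot3-3* and 0.351% lower. At an unadjusted P below 0.05, 3 of the 43 genes remained in edgeR, RPL7A, RPL7D and RPL6B, while 25.7% of all tested genes did. RPL7A was higher in *hot3-3* by 0.34 ± 0.084 (SE) on the log2 scale (edgeR, adjusted P = 0.038), RPL7D by 0.27 ± 0.077 (SE, adjusted P = 0.062) and RPL6B by 0.20 ± 0.068 (SE, adjusted P = 0.098). The differences of all 43 genes ran from −0.17 to 0.34 with a median of 0.06, and 33 were positive, where 49.5% of all tested genes were.

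Promoters were read from 250 bases before to 50 bases after the gene start in RefSeq (TAIR10.1), to see what the set shares in sequence. The telo box was searched as AAACCCTA and site II as TGGGCC or TGGGCT, on both strands, so that a palindromic stretch can give overlapping site II matches on both strands. The telo box was found in 26 of 45 promoters (57.8%) and in 6.2% of 27443 promoters of the table, and site II in 38 of 45 (84.4%) and in 21.7%. Both were found in 22 of 45 (48.9%) and in 2.2% of all promoters, while 3 of 45 (6.7%) had neither, against 74.3%. The 3 without a match were those of RPL6C, RPL7D and RPL13C. RPL6C and RPL7D, the only 2 tested genes of the 3, were among the least changed genes and RPL13C was close to silent. The RPL6C window, chr1:27848959-27849258, runs at its far end into the neighbouring RPL6B gene, which begins at 27849217. RPL3B, the least changed, had 2 site II matches, and RPL8B, also close to silent, had 2 of each. The median log2 fold change of the 25 tested genes with a telo box was 1.29 in *hot3-2* and 1.36 in *hot3-3*, against 1.36 and 1.40 in the 18 without. A relation between these matches and the level or change of the genes was not tested.

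Below are the promoters of the 3 genes with the smallest and the 3 with the largest mean change, shown so that the sequences can be set beside the values, from 150 bases before to 30 bases after the start, 5′ to 3′ along the gene, with telo box and site II matches in capitals.
RPL3B promoter, chr1:22723123-22723302, - strand: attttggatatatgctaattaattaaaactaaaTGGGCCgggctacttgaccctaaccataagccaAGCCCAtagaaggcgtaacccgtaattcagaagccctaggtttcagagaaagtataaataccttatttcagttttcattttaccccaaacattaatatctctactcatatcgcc
RPL7D promoter, chr3:4432897-4433076, + strand: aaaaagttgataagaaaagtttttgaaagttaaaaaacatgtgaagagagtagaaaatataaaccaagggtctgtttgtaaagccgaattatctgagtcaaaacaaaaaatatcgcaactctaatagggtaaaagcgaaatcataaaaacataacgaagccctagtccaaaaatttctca
RPL13aD promoter, chr5:19772760-19772939, - strand: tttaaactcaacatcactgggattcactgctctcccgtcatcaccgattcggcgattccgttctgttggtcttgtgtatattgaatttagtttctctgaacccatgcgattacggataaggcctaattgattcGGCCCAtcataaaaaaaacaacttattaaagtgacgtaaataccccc
RPL7A promoter, chr1:30348520-30348699, + strand: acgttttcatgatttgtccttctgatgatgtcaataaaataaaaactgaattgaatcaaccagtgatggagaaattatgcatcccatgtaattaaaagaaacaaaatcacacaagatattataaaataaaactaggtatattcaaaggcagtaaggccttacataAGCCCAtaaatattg
RPL4A promoter, chr3:2953543-2953722, + strand: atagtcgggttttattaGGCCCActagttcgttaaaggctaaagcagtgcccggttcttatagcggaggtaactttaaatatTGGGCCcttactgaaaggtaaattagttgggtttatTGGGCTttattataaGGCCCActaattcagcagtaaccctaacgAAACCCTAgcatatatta
RPL9D promoter, chr4:6464529-6464708, - strand: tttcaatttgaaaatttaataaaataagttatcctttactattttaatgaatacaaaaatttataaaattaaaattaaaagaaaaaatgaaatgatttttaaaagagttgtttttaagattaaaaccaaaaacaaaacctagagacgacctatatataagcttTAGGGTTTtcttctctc
RPL4A holds 4 site II matches and a telo box in this stretch, RPL3B 2 site II matches, RPL13aD and RPL7A 1 each, RPL9D a telo box alone, and RPL7D none. RPL13aD has a telo box and RPL7A a further 2 site II matches in the longer window.

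The set moved in the same direction as related genes. Of 25 factors for assembly of the pre-60S particle, all tested, 13 were higher in *hot3-2* and 20 in *hot3-3* and none was lower by edgeR, also at an unadjusted P below 0.05, with a median log2 fold change of 1.001 and 1.24. The 3 with the smallest P in *hot3-2* were eIF6A (1.72 and 1.92), whose yeast counterpart keeps the 60S subunit from joining too early, RLP24 (1.60 and 1.71), in yeast a placeholder for a late ribosomal protein, and BRX1-2 (1.59 and 1.64), in yeast a nucleolar assembly factor. The other genes annotated as ribosomal proteins without an organelle term, 267 tested, had 146 called as higher in *hot3-2* and 150 in *hot3-3*, at medians of 1.11 and 1.13. By edgeR 0 were called as lower in *hot3-2* (32 at an unadjusted P below 0.05) and 8 in *hot3-3* (33 at that P). Of all tested genes, 7.80% were called higher in *hot3-2* and 9.63% in *hot3-3*, and 3.88% and 4.91% lower. An unadjusted P below 0.05, in either direction, was reached by 56.3% and 57.2% of all tested genes. This second list can hold nuclear genes for organellar ribosomes, and no difference between the lists was tested.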

How the data were processed

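The deposited values were raw read counts per gene, one table per library, made by the authors through trimming of read pairs (cutadapt), mapping to TAIR10 (STAR) and counting of proper pairs that mapped uniquely (featureCounts, with cutadapt 4.2, STAR 2.7.10b and featureCounts 2.0.3 named in the submitters' processing notes). A directional kit was used on 4 µg of DNase-treated RNA. The strand setting and annotation release were not stated, so reads of overlapping genes may be shared. Deposited gene lengths were used for levels per kb.

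Levels are CPM, the count over the library total. Genes were filtered with filterByExpr (minimum count 10), scaled by TMM (factors 0.963 to 1.04) and fitted, with genotype as the only factor, over all 7 libraries (edgeR 4.0.16, R 4.3.3). The quasi-likelihood F test was adjusted by Benjamini-Hochberg over all tested genes. The threshold is the study's own. The fit was tested on simulated data. DESeq2 1.42.0 was an alternative. Standard errors came from the F statistic.

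All 45 loci matched RefSeq TAIR10.1 by locus with the same exonic length, as did 99.4% of matched genes, and coordinates, strands and promoter sequences are from RefSeq TAIR10.1. Windows of 100 bases were compared among transcripts. Per-library values are given for the 5 genes with the largest and the 5 with the smallest mean change, and for L5 and L11. The rule also covered families whose paralogs differed by 1 or more in both contrasts and genes called between alleles, and there were none. RPL3A is given in addition. Members, lists and tests were chosen with earlier results of these data known.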

Additional observations from a re-analysis of the deposited data

Results flagged for a closer look

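RPL7A (AT1G80750) differed between the alleles, with a log2 difference of 0.34 ± 0.084 (SE) of *hot3-3* from *hot3-2* (edgeR's quasi-likelihood test, adjusted P = 0.038). It was picked out because the difference between alleles itself passed an adjusted P of 0.05, though not the 0.01 used for calls. Both *hot3-3* libraries, at 118 and 110 CPM, lay above the *hot3-2* libraries at 89.8, 83.0 and 86.1 CPM. This order was not particular to RPL7A. In CPM on unscaled library totals, 31 of the 43 tested genes had it, and 1 had both *hot3-3* libraries below. Over the alternatives the difference ran between 0.30 and 0.40, with an adjusted P between 0.012 and 0.19.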

How the results depend on the processing

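The count of genes higher than WT stayed within 1.5 times its value under every alternative run. It was 31 to 40 in *hot3-2* and 35 to 42 in *hot3-3* when a library was left out, with a lone WT or *hot3-3* library then assumed to vary like the other groups, and 36 to 39 and 38 under other scalings, no filter, DESeq2 or only 2 genotypes in the fit. Under an adjusted P below 0.05 with no fold limit it was 42 in each, and 1 gene, RPL7A, was then higher in *hot3-3* than in *hot3-2*, against 0 otherwise. With a replicate block the counts were 38 and 38, and 0 between alleles. On TMM-scaled library totals the summed level of the 45 genes was 2.47 times WT in *hot3-2* and 2.57 times in *hot3-3*. The alleles then overlapped, at 20271 to 22151 CPM in *hot3-2* and 21840.5 to 22255.5 CPM in *hot3-3*. Deviations of same-numbered libraries correlated at 0.024 to 0.063 between WT and the mutants and at 0.18 to 0.22 between the mutants. Libraries with unlike numbers were not correlated for comparison, so these values cannot decide whether the numbers pair the libraries. RPL3B changed sign with single libraries left out, with values between −0.042 and 0.54 for *hot3-2* and between −0.21 and 0.37 for *hot3-3*, and the cause was not tested. Of the changes in paralog share, 8 moved by more than the spread between replicates in counts not divided by length, among them RPL9D in *hot3-2* (5.35 points) and RPL7A (1.81 in *hot3-2* and 3.02 in *hot3-3*). Counted once per gene, allele and alternative, 11 calls near the fold limit were lost and 12 gained. Several came from the same gene, as for RPL12B among the lost and RPL10C among the gained. With only 2 WT libraries, which lay ±0.11 on the log2 scale around their mean over the set, genes near the fold limit, such as RPL10C and RPL12B, cannot be placed firmly on either side of it.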

Other observations

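Across the 43 tested genes, the log2 fold change had a Spearman rho of 0.064 in *hot3-2* and 0.032 in *hot3-3* with the WT level, of 0.085 and 0.16 with gene length, and of 0.11 and 0.16 with the number of site II matches. These values describe genes that share libraries and are not independent replicates.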
